A study of Homo sapiens with 12 samples.

Results

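The PERK arm of the unfolded protein response was followed through 7 count rows of HSC-3, a cell line from a human squamous carcinoma of the mouth, out of 60675 gene rows in all. They were chosen with earlier results of these data known. Of the 7, 4 lie on the strand opposite a gene of the arm: ENSG00000225420 opposite EIF2AK3, MARS1 opposite DDIT3 and also opposite ARHGAP9, CEBPB-AS1 opposite CEBPB, and SLC7A11-AS1 opposite SLC7A11. The other 3 are the own rows of DDIT3, CEBPB and EIF2AK3. Of these 7 rows, 6 passed the study's count filter and were tested among 14911 rows. EIF2AK3 itself did not pass.

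PERK, the product of EIF2AK3, is a kinase in the membrane of the endoplasmic reticulum that is activated when unfolded proteins build up there. It phosphorylates a translation initiation factor, which slows protein synthesis in general while favouring translation of the transcription factor ATF4. ATF4 and its partners are known to induce DDIT3, which encodes the transcription factor CHOP, CEBPB, which encodes another member of the C/EBP family, the cystine transporter gene SLC7A11 and several tRNA synthetase genes, whose products load amino acids onto tRNAs. Loss of calcium from the endoplasmic reticulum is a classical trigger of this arm.

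Total RNA was sequenced in 3 groups of 4 libraries: cells given 25 µM cyclopiazonic acid (CPA) together with synta-66 (labelled CPA_S66), cells given 25 µM CPA alone, each for 3 hours, and untreated cells. CPA blocks the SERCA pump, which fills the endoplasmic reticulum with calcium, and synta-66 inhibits the ORAI calcium channels of the plasma membrane. The sources used here give no dose for synta-66, and synta-66 without CPA was not analysed here, so an effect of synta-66 itself and an effect on the CPA response cannot be told apart. All groups are 1 cell line. No label states whether libraries of the same group are separate cultures, so p-values reflect only the spread among the samples, possibly a technical one.

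The libraries held 2819486 to 5458858 reads assigned to genes, which was 3.58% to 9.4% of their uniquely aligned reads. Mitochondrial rows took 1.1% to 53.9% of gene reads, and 3 libraries, CPA with synta-66 replicates 1 and 4 and untreated replicate 3, stood apart with 53.9%, 49.8% and 40.1% of them and with the most non-unique alignments. The results are therefore also given without these 3. Keratin and other squamous epithelium markers summed to 8022 to 8723 CPM (read counts scaled to library size with TMM) with CPA and synta-66, 7138 to 8188 CPM with CPA and 7056 to 7641 CPM in untreated cells. Each of the 14 had reads in every group, but only 11, 12 and 11 of them, in that order, averaged over 1 CPM. Such a sum can rest on a few of the markers. The rows opposite 4 of them, KRT8, KRT18, CDH1 and DSP, summed to 8098 to 8847 CPM with CPA and synta-66. They summed to 7238 to 8326 CPM with CPA and 7125 to 7733 CPM in untreated cells. The 10 fibroblast markers summed to 0.225 to 1.22 CPM with CPA and synta-66, 0.819 to 1.73 CPM with CPA and 0.586 to 1.6 CPM in untreated cells. COL3A1, PDGFRB, DCN, LUM and POSTN had no read in any group. Marker sums are of own rows unless said otherwise. The rows opposite COL1A1, FAP and THY1 summed to 5.9 to 15.8 CPM with CPA and synta-66, 10 to 13.2 CPM with CPA and 7.4 to 9.38 CPM in untreated cells. In each group only 1 of these opposite rows averaged over 1 CPM. The 12 immune and endothelial markers summed to 10.9 to 16.2 CPM with CPA and synta-66, 11.9 to 19.4 CPM with CPA and 15.6 to 26.6 CPM in untreated cells. CD3E, MS4A1 and KDR were at 0 throughout. The part of these differences in the results was not tested. From bulk RNA, fewer cells of a type and less RNA per cell cannot be told apart.

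Each pair of rows shares only part of its exons. ENSG00000225420, a noncoding RNA gene on chromosome 2 (88538720 to 88575610, plus strand, GRCh38), overlaps exons of EIF2AK3 (88556741 to 88691518, minus strand) by 781 bases, which is 44.7% of its own exon bases. MARS1, which encodes the cytosolic methionine tRNA synthetase, lies on chromosome 12 (57475445 to 57517569, plus strand) and overlaps exons of DDIT3 (57516588 to 57521737, minus strand) by 355 bases, 5.05% of its own exon bases and 27.2% of those of DDIT3. It overlaps exons of ARHGAP9 by 519 bases. CEBPB-AS1 (chromosome 20, 50184598 to 50191498, minus strand) shares 231 bases with the single exon of CEBPB (50190830 to 50192668, plus strand). SLC7A11-AS1 (chromosome 4, 138057464 to 138178177, plus strand) shares 865 bases with exons of SLC7A11 (138164097 to 138242349, minus strand). The exons are those of GENCODE 44, while the study counted on Ensembl 84. For EIF2AK3, DDIT3, CEBPB and SLC7A11, the opposite row held more reads than the own row in every group. The sources used here name no library kit. Counted as stranded, 90.5% to 96.3% of uniquely aligned reads lay in no annotated feature. Whether a row's reads come from its own transcript or from that of the gene opposite it was not tested. Every value below is given for the row that was counted.

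**Figure D1:**
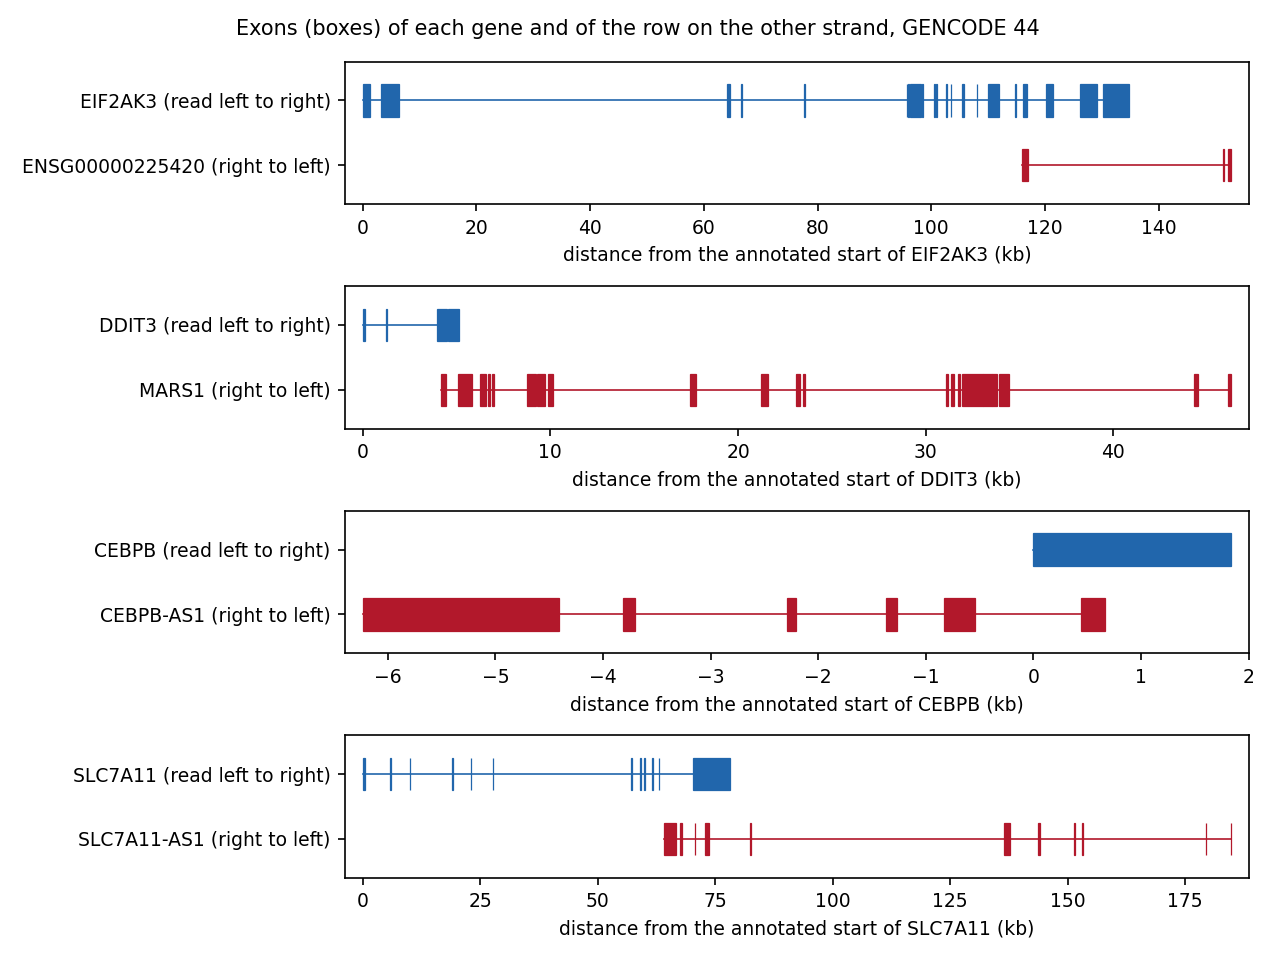
Exons (boxes) of EIF2AK3, DDIT3, CEBPB and SLC7A11 (blue) and of the row on the other strand (red), by distance in kb from the annotated start of the coding gene. The row opposite overlaps the far end of DDIT3 and SLC7A11 and the inside of the single exon of CEBPB. At EIF2AK3 it overlaps an inner exon, 116072 to 116852 bases from the start, with further exons beyond it.

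Promoters are shown because several of these rows moved together, and because ATF4, CHOP and the ATF6 arm act through short promoter elements. RefSeq starts on GRCh38.p14 were available for 5 of 6 genes looked up (EIF2AK3, DDIT3, CEBPB, MARS1 and ATF4, with 8 starts between them). The 250 bases before each start were searched on both strands for the C/EBP-ATF response element TGATGCAA, the cyclic AMP response element TGACGTCA, its shorter core TGACG, and CCAAT and CCACG, the ends of the ER stress response element, alone or spaced as in that element. These have a match in 0.772%, 1.65%, 21.2%, 32%, 33.5% and 0.074% of 35116 promoters. TGACG lies within TGACGTCA, and the full ER stress element holds CCAAT and CCACG. The EIF2AK3 promoter (chr2:88627465-88627714, minus strand) held 4 CCAAT matches, and that of DDIT3 held 2, both of them within the 120 bases shown here (chr12:57520515-57520634, minus strand). Capitals mark CCAAT or its reverse complement ATTGG.
EIF2AK3: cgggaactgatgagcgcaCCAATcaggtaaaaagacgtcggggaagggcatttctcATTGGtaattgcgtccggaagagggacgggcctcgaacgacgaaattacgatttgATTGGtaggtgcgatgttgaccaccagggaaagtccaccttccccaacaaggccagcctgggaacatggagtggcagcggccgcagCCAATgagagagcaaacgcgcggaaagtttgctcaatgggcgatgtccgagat
DDIT3: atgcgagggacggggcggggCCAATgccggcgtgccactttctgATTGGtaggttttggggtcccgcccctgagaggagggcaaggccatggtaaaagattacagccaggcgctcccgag

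CEBPB held 1 TGACG, in capitals in the 120 bases before its downstream start (chr20:50190710-50190829, plus strand), and 1 CCAAT farther upstream. MARS1 held none of the motifs in the 250 bases. Across its start, in a wider window of 300 bases looked at afterwards, it held TTGCATCA, the reverse complement of TGATGCAA, from base -4 to base 4 of the start (chr12:57488048-57488077, plus strand, shown from base -20 to base 10, with the match in capitals). In that wider window 304 of 35116 promoters (0.866%) hold this element, and the other promoters looked up did not. ATF4 held 2 TGACG and 2 CCACG. A match is a run of letters and was not tested as a binding site.
CEBPB: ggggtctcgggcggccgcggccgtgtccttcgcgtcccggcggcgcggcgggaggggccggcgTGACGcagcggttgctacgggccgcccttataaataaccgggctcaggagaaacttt
MARS1: gggaggccggttccggTTGCATCAgcgagg

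At the locus of PERK itself, the row opposite EIF2AK3 was higher with each treatment. ENSG00000225420 had 664, 722, 675 and 620 CPM in the 4 libraries with CPA and synta-66, 319, 327, 312 and 309 CPM with CPA, and 156, 181, 163 and 143 CPM in untreated cells. No library of one group reached the range of another. It rose 1.97-fold with CPA against untreated (log2 fold change 0.98 ± 0.081 SE, adjusted p = 3.66e-12) and a further 2.12-fold with synta-66 against CPA alone (1.08 ± 0.08, adjusted p = 9.67e-14), by the quasi-likelihood test of edgeR, Benjamini-Hochberg adjusted over all rows tested. With CPA and synta-66 it stood at 4.17 times its untreated level (2.06 ± 0.083, adjusted p = 1.14e-22).

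The row of EIF2AK3 was nearly empty. It had 3, 13, 2 and 2 reads with CPA and synta-66, 2, 3, 2 and 4 with CPA, and 0, 5, 0 and 2 in untreated cells, so these groups overlap and the row failed the minimum of 5 reads in 2 of 4 libraries of a group. Fitted without that minimum, the row had adjusted p = 0.662 for synta-66 with CPA against CPA, 0.915 for CPA against untreated and 0.619 between CPA with synta-66 and untreated cells. A change of EIF2AK3 was not detectable at this depth in its own row. EIF2AK3-DT, a noncoding gene on the other strand that starts within the promoter printed above and shares no exon base with EIF2AK3, was looked at after its values were seen. It averaged 6.81 CPM with CPA and synta-66, 3.16 CPM with CPA and 1.44 CPM in untreated cells. Against untreated cells it rose with CPA and synta-66 (log2 fold change 2.22 ± 0.51, adjusted p = 0.00456). It was not called for CPA against untreated (1.11 ± 0.52, adjusted p = 0.297) or with synta-66 added to CPA (1.11 ± 0.47, adjusted p = 0.165).

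MARS1, the row opposite DDIT3, showed the largest change of the 6 rows tested. Its libraries had 2517, 2767, 2625 and 2385 CPM with CPA and synta-66, 795, 676, 699 and 689 CPM with CPA, and 210, 226, 209 and 208 CPM in untreated cells. The 3 groups lie far apart, and within a group no library differs from another by as much as the groups do. MARS1 rose 3.35-fold with CPA against untreated (log2 fold change 1.74 ± 0.072, adjusted p = 4.13e-22), 3.6-fold with synta-66 against CPA alone (1.85 ± 0.071, adjusted p = 1.65e-23) and 12.1-fold with CPA and synta-66 against untreated (3.59 ± 0.077, adjusted p = 5.59e-33). That last adjusted p ranked 1 of the 14911 rows, and of 1834 rows with a mean over 50 CPM none had a higher log2 fold change in that comparison.

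DDIT3, the gene of CHOP, did not follow it in its own row. DDIT3 had 178, 139, 162 and 141 CPM with CPA and synta-66, 112, 137, 126 and 125 CPM with CPA, and 133, 140, 148 and 96.1 CPM in untreated cells. The CPA and untreated groups overlap, and the lowest library with CPA and synta-66 lies just above the highest with CPA. The row was not called in any comparison, with log2 fold changes of -0.049 ± 0.11 for CPA against untreated (adjusted p = 0.906), 0.31 ± 0.11 for synta-66 with CPA against CPA (adjusted p = 0.0903) and 0.26 ± 0.11 against untreated (adjusted p = 0.245). ARHGAP9, a GTPase regulator that also lies opposite MARS1, averaged 0.439 CPM with CPA and synta-66, 1.13 CPM with CPA and 0.531 CPM in untreated cells, and was not called. MBD6, which overlaps the first exon of DDIT3 by 58 bases and was chosen after its values were seen, averaged 9.97 CPM with CPA and synta-66, 13.2 CPM with CPA and 9.94 CPM in untreated cells and was not called.

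Set beside the other tRNA synthetases, the MARS1 row had a higher level per length of exon than any of them. It stood at 366 CPM per kb with CPA and synta-66, 102 with CPA and 30.4 in untreated cells. The own rows of 19 other cytosolic synthetases had medians of 0.552 CPM per kb with CPA and synta-66, 0.462 with CPA and 0.449 in untreated cells. KARS1, the lysine enzyme, was the highest of them in each group, at 9.98 CPM per kb with CPA and synta-66, 9.13 with CPA and 6.64 in untreated cells. KARS1 lies opposite TERF2IP, and others of the 19 also have a row opposite them. Synthetases with and without such a row were not compared with each other. Whether the MARS1 row reads MARS1, DDIT3 or both was not tested.

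**Figure D2:**
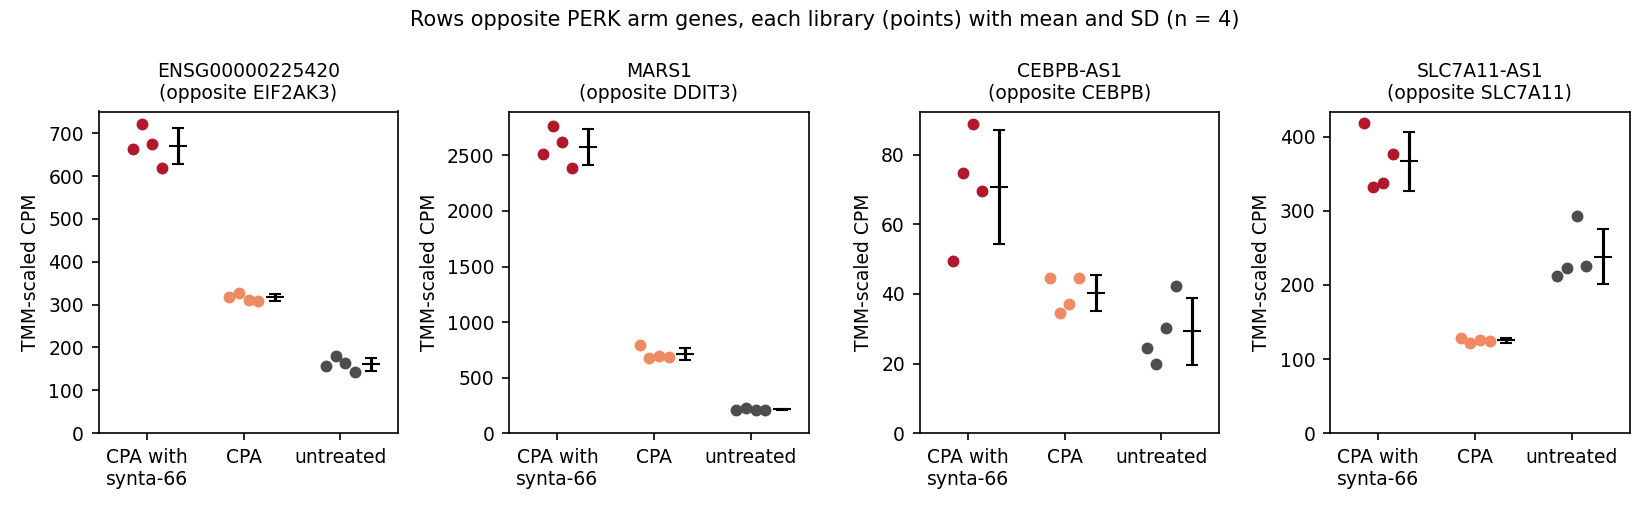
TMM-scaled CPM of ENSG00000225420, MARS1, CEBPB-AS1 and SLC7A11-AS1 in each library (points), with the mean and SD of 4 libraries (bars), for CPA with synta-66, CPA and untreated cells. ENSG00000225420 and MARS1 are highest with CPA and synta-66 and lowest in untreated cells, without overlap, while SLC7A11-AS1 is lowest with CPA, at 121 to 129 CPM.

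CEBPB encodes C/EBP beta, a transcription factor that can pair with CHOP. CEBPB-AS1, the noncoding row opposite it, had 49.5, 74.6, 88.9 and 69.6 CPM with CPA and synta-66, 44.6, 34.4, 37.2 and 44.5 CPM with CPA, and 24.4, 20, 30.3 and 42.2 CPM in untreated cells. The libraries with synta-66 lie above all others, and the CPA and untreated groups overlap through untreated replicate 4. CEBPB-AS1 rose 1.77-fold with synta-66 against CPA alone (log2 fold change 0.82 ± 0.17, adjusted p = 0.000863) and 2.46-fold with CPA and synta-66 against untreated (1.30 ± 0.18, adjusted p = 9e-07). For CPA against untreated it was not called (0.48 ± 0.18, adjusted p = 0.139). Without untreated replicate 4, its highest untreated library, that comparison was called (0.70, adjusted p = 0.00737).

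The own row of CEBPB was lower in level and was called in the same comparisons. CEBPB had 16.2, 19.8, 25.3 and 25.2 CPM with CPA and synta-66, 6.97, 6.98, 9.21 and 8.63 CPM with CPA, and 8.12, 8.2, 7.19 and 12.3 CPM in untreated cells. Every library with synta-66 lies above every other library, and the CPA and untreated groups overlap. It rose 2.71-fold with synta-66 against CPA alone (1.44 ± 0.26, adjusted p = 0.000138) and 2.43-fold with CPA and synta-66 against untreated (1.28 ± 0.26, adjusted p = 0.00103). CPA alone gave -0.16 ± 0.27 against untreated (adjusted p = 0.862). CEBPB was thus the only one of the 4 coding genes of these pairs whose own row passed the test in any comparison. The interval of the CPA effect is wide, and this depth does not show that CPA left the row alone.

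SLC7A11 encodes the light chain of the cystine and glutamate exchanger, which brings in cystine for glutathione synthesis. SLC7A11-AS1 had 419, 332, 338 and 377 CPM with CPA and synta-66, 129, 121, 126 and 124 CPM with CPA, and 212, 223, 293 and 225 CPM in untreated cells. No 2 groups overlap, and the CPA libraries are the lowest. The row fell with CPA to 0.525 of its untreated level (log2 fold change -0.93 ± 0.097, adjusted p = 1.72e-09) and with synta-66 was 2.93-fold higher than under CPA alone (1.55 ± 0.097, adjusted p = 6.97e-16). These comparisons share the CPA libraries, so their opposite signs are not independent of each other.

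Against untreated cells, SLC7A11-AS1 was 1.54-fold higher with CPA and synta-66 (0.62 ± 0.095, adjusted p = 1.03e-05), close to the minimum of 1.5-fold. Without CPA with synta-66 replicate 1 the change was 0.55 and without untreated replicate 1 it was 0.57, both under that minimum of 0.585 on the log2 scale. The own row of SLC7A11 averaged 7.17 ± 1.61 CPM with CPA and synta-66, 6.49 ± 1.46 CPM with CPA and 5.93 ± 3.32 CPM in untreated cells (SD, n = 4). It rested on 14 to 36 reads per library and was not called, with log2 fold changes of 0.16 ± 0.38 for CPA against untreated, 0.12 ± 0.38 for synta-66 with CPA against CPA, and 0.29 ± 0.39 between CPA with synta-66 and untreated cells. A change of the size seen at SLC7A11-AS1 for CPA with synta-66 against untreated would lie within the error of this row. Its changes for CPA against untreated (-0.93) and for synta-66 with CPA against CPA (1.55) lie outside the error of the own-row values. ATF4, which acts upstream of CHOP and SLC7A11, averaged 5.08 CPM with CPA and synta-66, 3.76 CPM with CPA and 3.72 CPM in untreated cells in its own row and was not called.

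**Figure D3:**
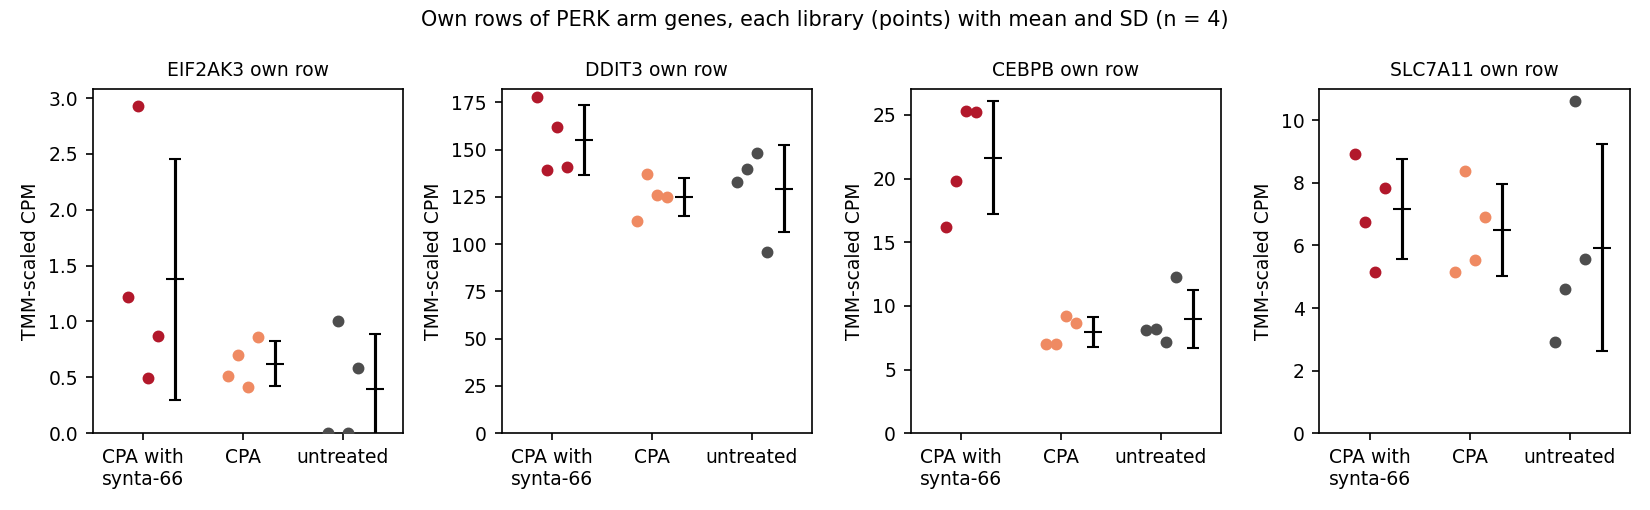
TMM-scaled CPM of the own rows of EIF2AK3, DDIT3, CEBPB and SLC7A11 in each library (points), with the mean and SD of 4 libraries (bars), for CPA with synta-66, CPA and untreated cells. CEBPB, with 16.2 to 25.3 CPM in the libraries with synta-66, lies above all its other libraries there, and EIF2AK3 stays near 0.

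Over the members, 2 of the 6 tested rows were called higher and 1 lower for CPA against untreated, where 1.8% of all 14911 rows were called higher and 1.05% lower. For CPA with synta-66 against CPA, 5 were called higher and none lower, against 1.94% and 2.82% of all rows. For CPA with synta-66 against untreated, again 5 were called higher and none lower, against 1.66% and 1.24%. Calls required an adjusted p below 0.05 together with 1.5-fold or more. The median log2 fold change of the 6 rows was 0.21, 1.26 and 1.29 in these comparisons, and that of all rows tested -0.0067, -0.037 and -0.056. The row not called in both comparisons with synta-66 was DDIT3. Because the members were chosen with earlier results of these data known, these counts and the rank of MARS1 describe them and are no test. With library sizes of uniquely aligned reads, chosen after seeing the data, 194 of all rows were called higher and 262 lower for CPA with synta-66 against untreated, in place of 248 and 185, and 4 members were called higher, SLC7A11-AS1 falling short of the minimum fold at 0.53. Without the 3 libraries that stood apart the counts of members called were the same, and MARS1 had log2 fold changes of 1.74, 1.92 and 3.66 and SLC7A11-AS1 of -0.81, 1.43 and 0.62.

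**Figure D4:**
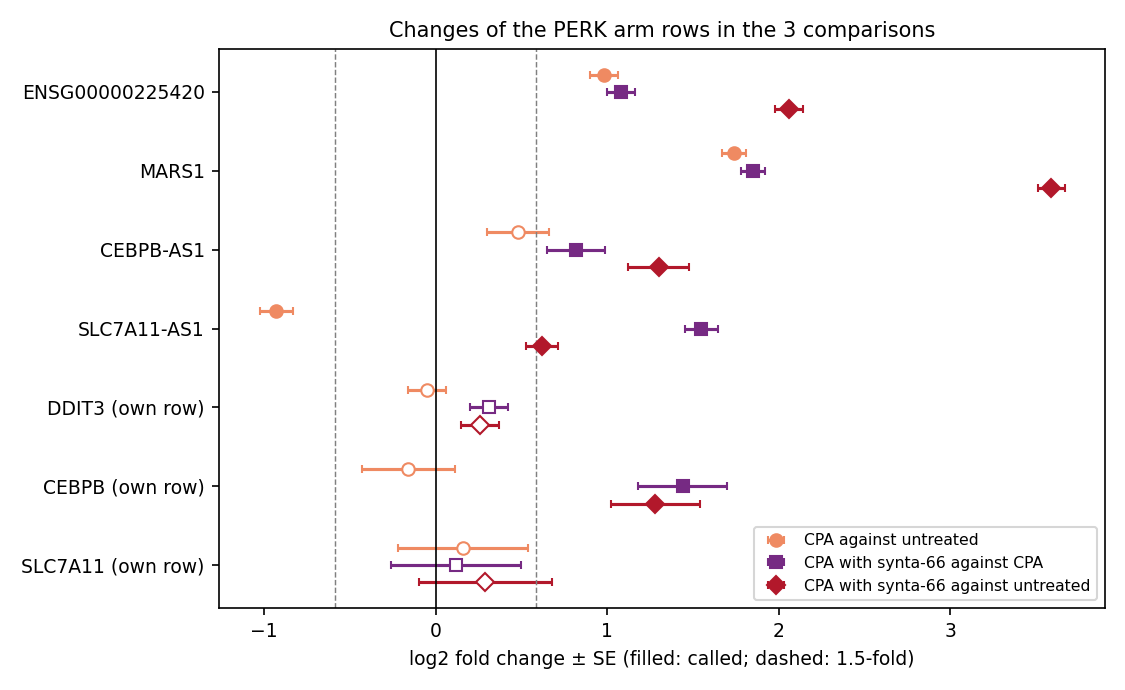
Log2 fold change with SE of each row in the 3 comparisons (circles, squares and diamonds), filled where the row was called, with dashed lines at 1.5-fold. MARS1 reaches 3.59 for CPA with synta-66 against untreated, SLC7A11-AS1 lies below 0 for CPA against untreated and above 0 with synta-66, and DDIT3 and SLC7A11 (own rows) have no filled symbol.

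The balance between the 2 rows of a pair asks whether they moved together, and it needs no scaling between libraries. Summed over the 4 libraries of a group, there were 17 MARS1 reads for each DDIT3 read with CPA and synta-66, 5.68 with CPA and 1.65 in untreated cells. Per kb of exon these ratios were 3.16, 1.06 and 0.306, so the row with more reads per length was MARS1 with CPA and synta-66 and DDIT3 in untreated cells. On the log2 scale the DDIT3 share relative to MARS1 was 1.77 lower with CPA than in untreated cells, 1.54 lower with synta-66 than under CPA alone, and 3.32 lower with CPA and synta-66 than in untreated cells, with no overlap of libraries in any of them. Each has p = 0.0286 in an exact two-sided permutation test, the smallest that 4 against 4 libraries can give, and 0.0571 after adjustment over the 12 tests of 4 pairs in 3 comparisons. No test of the 12 passed 0.05 after adjustment. With 5 in place of 0.5 reads added to each row, 9 of them did, each at adjusted p = 0.0381, among them the 3 of DDIT3 and MARS1. Those 3 already had the smallest possible p with 0.5 added. Their adjusted p fell only because ratios of other pairs also reached that p, some of them of EIF2AK3, where 5 exceeds most counts. This pass therefore adds nothing for DDIT3 and MARS1.

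The CEBPB pair kept a narrower balance. There were 3.37 CEBPB-AS1 reads for each CEBPB read with CPA and synta-66, 4.99 with CPA and 3.16 in untreated cells. The log2 ratio of CEBPB to CEBPB-AS1 differed by -0.025 between CPA with synta-66 and untreated cells (exact permutation p = 0.857) and by 0.63 between CPA with synta-66 and CPA (exact permutation p = 0.0286, adjusted 0.0571). For CPA against untreated it differed by -0.66 (exact permutation p = 0.0571, adjusted 0.098), with overlapping groups.

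For SLC7A11 the ratio moved with its opposite row. SLC7A11-AS1 had 52.2 reads for each SLC7A11 read with CPA and synta-66, 19.2 with CPA and 42.7 in untreated cells. The log2 ratio of SLC7A11 to SLC7A11-AS1 was 1.17 higher with CPA than in untreated cells and differed by -1.40 between CPA with synta-66 and CPA, each without overlap (exact permutation p = 0.0286, adjusted 0.0571). Between CPA with synta-66 and untreated cells it differed by -0.22 (exact permutation p = 0.486). EIF2AK3 had only 20 reads with CPA and synta-66, 11 with CPA and 7 in untreated cells, beside 9014, 5600 and 2663 at ENSG00000225420, and its ratios were not distinguishable (exact permutation p between 0.686 and 0.886).

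**Figure D5:**
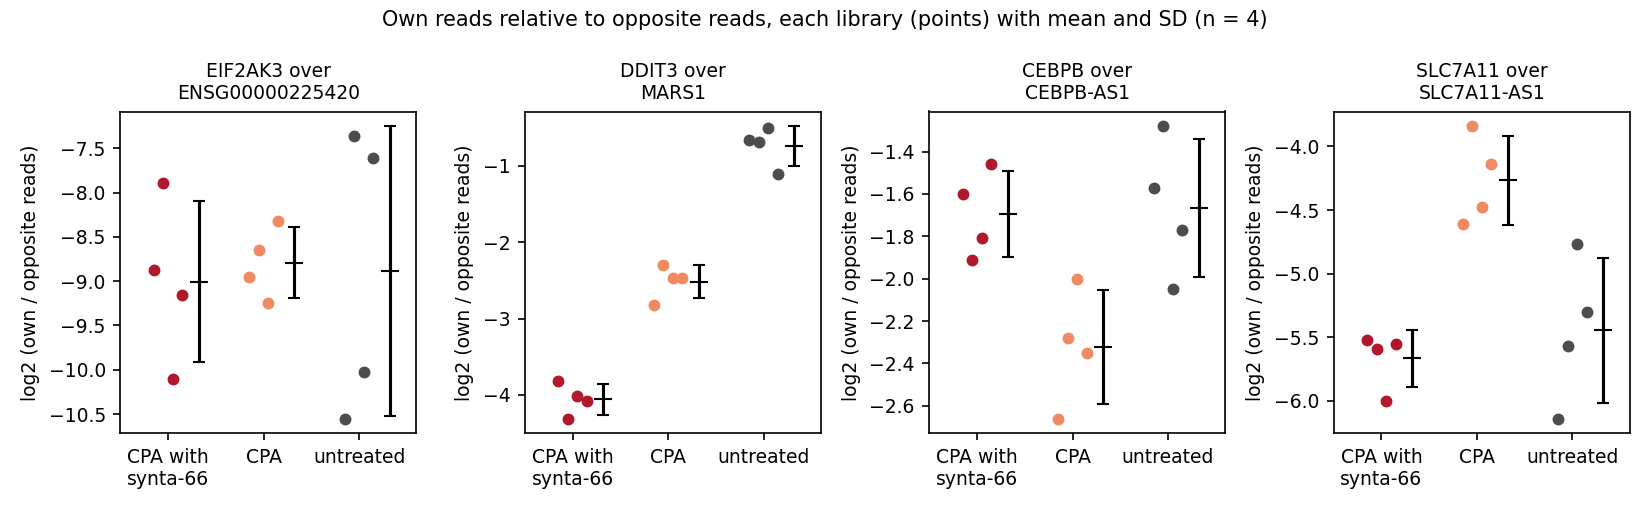
Log2 ratio of own to opposite reads (0.5 added to each) for the 4 pairs in each library (points), with the mean and SD of 4 libraries (bars). The DDIT3 ratio averages -4.06 with CPA and synta-66, -2.52 with CPA and -0.74 in untreated cells without overlap, and the SLC7A11 ratio is highest with CPA.

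Levels per length place ENSG00000225420 at or near the top in every group. With CPA and synta-66 the order in CPM per kb of exon was ENSG00000225420 (384) and MARS1 (366), whose libraries overlap, then DDIT3 (119), SLC7A11-AS1 (59.5), CEBPB-AS1 (26.7), CEBPB (11.8), SLC7A11 (0.743) and EIF2AK3 (0.0665). With CPA it was ENSG00000225420 (181), then MARS1 (102) and DDIT3 (95.6), which overlap, then SLC7A11-AS1 (20.3), CEBPB-AS1 (15.2), CEBPB (4.32), SLC7A11 (0.673) and EIF2AK3 (0.03). In untreated cells DDIT3 (98.9) and ENSG00000225420 (92) overlapped at the top, followed by SLC7A11-AS1 (38.7), MARS1 (30.4), CEBPB-AS1 (11), CEBPB (4.87), SLC7A11 (0.615) and EIF2AK3 (0.0192). MARS1 thus stood below DDIT3 and SLC7A11-AS1 in untreated cells and above both in the mean with CPA. Other neighbours in these orders did not overlap across libraries. The exon length of EIF2AK3 in GENCODE 44, 20691 bases, comes from a gene model that reaches far upstream of its RefSeq start, so its value per kb is a low one.

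Rows with the most similar course were looked up among 6356 rows with a mean of at least 5 CPM, by the root mean square difference of centred log2 CPM over the 12 libraries, where 0 is an identical course. Nearest to ENSG00000225420 were ARSG (0.12), which lies opposite WIPI1 and SLC16A6, ENSG00000255114 (0.17), opposite the chaperone gene HYOU1, and EML2 (0.19). ARSG averaged 269 CPM with CPA and synta-66, 127 CPM with CPA and 65.9 CPM in untreated cells. The rows nearest to MARS1 were less close to it: TECPR1 (0.22), opposite the transcription factor gene BHLHA15, ENSG00000272009 (0.33), opposite ZNF165, and IFNGR2 (0.42), opposite TMEM50B. TECPR1 averaged 94.8 CPM with CPA and synta-66, 23.6 CPM with CPA and 5.97 CPM in untreated cells.

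CEBPB-AS1 had as its nearest rows ENSG00000268509 (0.23), opposite EDEM1, whose product helps to clear misfolded glycoproteins, STARD4-AS1 (0.26), opposite NREP and STARD4, and ENSG00000279086 (0.28), opposite TES. Nearest to SLC7A11-AS1 were MED12L (0.19), opposite IGSF10 and P2RY12, ENSG00000274021 (0.26), opposite the MAP kinase phosphatase gene DUSP6, and DIS3 (0.29), opposite BORA. MED12L was also lowest with CPA, at 306 CPM with CPA and synta-66, 128 CPM with CPA and 226 CPM in untreated cells. Of these 12 rows, 11 lie opposite exons of at least 1 coding gene, and EML2 does not. The share of such rows among all rows compared was not computed, so this count only describes the 12.

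The wider pathway was read from 7 lists, first by own rows. For CPA against untreated, 1.8% of all rows tested were called higher and 1.05% lower. These shares were 1.94% and 2.82% for synta-66 with CPA against CPA, and 1.66% and 1.24% for the combination against untreated. At such shares, lists this short may well hold no call. Of 14 tested genes of the PERK core (the kinase, its regulators and the factors of the integrated stress response) and of 10 CHOP partners and targets, none was called by edgeR in any comparison. At unadjusted p under 0.05, 0 PERK core rows were higher and 2 lower for CPA against untreated, 4 higher and 1 lower for synta-66 with CPA against CPA, and 2 higher and 0 lower for the combination against untreated. For the CHOP list these counts were 0 and 0, 5 and 1, and 3 and 0. No share over all rows was computed for the unadjusted counts given here and below. DESeq2 called no row of either list but 1, the death receptor gene TNFRSF10B, lower with synta-66 than under CPA alone. Among 5 C/EBP genes, CEBPB was the only call. SLC3A2, the heavy chain that partners SLC7A11, was 1 of 9 genes of cystine uptake and glutathione synthesis and was called higher with CPA and synta-66 (13.1 ± 2.12 CPM) than with CPA (6.39 ± 2.19 CPM, SD, n = 4, adjusted p = 0.0342). That call ended without CPA with synta-66 replicate 1 (0.0859) or 3 (0.101), without CPA replicate 2 (0.0926) or 4 (0.13), and without the 3 libraries that stood apart (0.131). Of 12 genes of amino acid transport and synthesis, SHMT2, a mitochondrial enzyme of serine and glycine metabolism, was the only call. It averaged 17.4 ± 3.48 CPM with CPA and synta-66, 5.61 ± 1.42 CPM with CPA and 5.52 ± 2 CPM in untreated cells (adjusted p = 0.000307 against CPA and 0.000443 against untreated). The median log2 fold change of this list was -0.038 for CPA against untreated, 0.79 for synta-66 with CPA against CPA and 0.66 for the combination against untreated.

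Of 17 tRNA synthetases tested by own rows, MARS1 was the 1 called for CPA against untreated. WARS1, the tryptophan enzyme, and SARS1, the serine enzyme, were also called for CPA with synta-66 against CPA, WARS1 at 32.6 ± 7.81 CPM with synta-66 and 14.3 ± 5.45 CPM with CPA alone (adjusted p = 0.000612) and SARS1 at 15.4 ± 2.33 CPM with synta-66 and 5.3 ± 1.12 CPM with CPA alone (adjusted p = 0.00186). Without the 3 libraries that stood apart WARS1 had adjusted p = 0.0691 there. Against untreated cells WARS1 rose by 1.49 ± 0.24 on the log2 scale with CPA and synta-66 (adjusted p = 3.54e-05). The calls of SARS1 and KARS1 in that comparison, at adjusted p = 0.0426 and 0.0253, depended on single libraries. For SARS1 it ended, at adjusted p between 0.0563 and 0.185, without CPA with synta-66 replicate 2, 3 or 4 or untreated replicate 1, 2 or 3. For KARS1 it ended, at adjusted p between 0.0658 and 0.126, without CPA with synta-66 replicate 2 or 3 or untreated replicate 3 or 4. edgeR called no own row of these 6 lists lower in any comparison, where 1.05%, 2.82% and 1.24% of all rows were called lower.

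The neighbouring IRE1 and ATF6 arms, which raise chaperones and the degradation machinery of the endoplasmic reticulum, had 2 of 16 own rows called higher for CPA against untreated, 6 for synta-66 with CPA against CPA, 8 between CPA with synta-66 and untreated cells, and none lower, where 1.8%, 1.94% and 1.66% of all rows were called higher. The 2 were HERPUD1 and DNAJB9. The call of DNAJB9, at adjusted p = 0.0472, ended when any 1 library other than CPA replicate 2 or untreated replicate 2 or 3 was left out, at adjusted p between 0.0514 and 0.177. DESeq2 called DNAJB9 and gave no adjusted p for HERPUD1. Without the 3 libraries that stood apart, 4 rows were called in each comparison with synta-66, in place of 6 and 8. HSPA5, the main chaperone of that compartment, averaged 34.1 ± 8.77 CPM with CPA and synta-66, 9.84 ± 5.7 CPM with CPA and 8.83 ± 3.4 CPM in untreated cells (adjusted p = 1.45e-05 against CPA and 6.6e-06 against untreated). Median log2 fold changes of this list were 0.19, 0.80 and 1.11 in the 3 comparisons, and those of the PERK core -0.018, 0.15 and 0.13.

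Read instead at the row opposite each gene, 3989 coding genes were tested, of which 3.41% were called higher and 1.3% lower for CPA against untreated, 2.68% and 4.36% for synta-66 with CPA against CPA, and 2.86% and 1.28% between CPA with synta-66 and untreated cells. MARS1 is outside this reading because it lies opposite more than 1 coding gene. In this reading the name of a gene stands for the counted row opposite it. Of 8 PERK core genes, EIF2AK3, read at the member row ENSG00000225420, was called higher in all 3 comparisons and no other gene in any. Of 4 CHOP partners and targets, the only call was VLDLR, a lipoprotein receptor gene, read at VLDLR-AS1. That row was called higher for CPA (24.2 ± 2.79 CPM) against untreated (11.4 ± 2.86 CPM, adjusted p = 0.000827) and between CPA with synta-66 (23.2 ± 5.19 CPM) and untreated cells (11.4 ± 2.86 CPM, adjusted p = 0.00302). Without the 3 libraries that stood apart, the last of these had adjusted p = 0.138.

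Within the C/EBP family, the 3 genes read this way did not move together. CEBPA, a family member known for its role in differentiation, was read at ENSG00000267580. That row averaged 14.9 ± 2.47 CPM with CPA and synta-66, 43.3 ± 5.15 CPM with CPA and 23.1 ± 8.93 CPM in untreated cells. It rose with CPA against untreated (log2 fold change 0.89 ± 0.19, adjusted p = 0.00244) and fell with synta-66 against CPA alone (-1.52 ± 0.21, adjusted p = 7.96e-07). In the latter comparison the own row of CEBPB and the row CEBPB-AS1 were both called higher. For CPA with synta-66 against untreated CEBPA was not called (-0.64, adjusted p = 0.0885), but it was without untreated replicate 3 (-0.78, adjusted p = 0.0271) or 4 (-0.73, adjusted p = 0.0405).

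Of 4 genes of cystine uptake and glutathione, SLC7A11, read at the member row SLC7A11-AS1, was called lower for CPA against untreated and higher in both other comparisons. GCLC, a subunit of the enzyme that limits glutathione synthesis, was read at GCLC-AS1. That row was called higher between CPA with synta-66 (111 ± 5.41 CPM) and untreated cells (66.5 ± 6.32 CPM, adjusted p = 5.7e-06). For CPA against untreated GCLC had a log2 fold change of 0.58 (adjusted p = 0.000318), just under the minimum of 0.585, and was called under 6 alternatives, among them without CPA replicate 1 (0.64) or untreated replicate 4 (0.64). Of 6 genes of amino acid transport and synthesis, none was called for CPA against untreated by edgeR or DESeq2, and at unadjusted p under 0.05 there was 1 in each direction. The mitochondrial folate enzyme gene MTHFD2 was read at ENSG00000264324. That row averaged 1392 ± 74.4 CPM with CPA and synta-66, 905 ± 51.2 CPM with CPA and 874 ± 56.8 CPM in untreated cells, and was called higher with synta-66 against CPA (adjusted p = 1.2e-08) and against untreated (adjusted p = 1.62e-09). Scaled by uniquely aligned reads, it had log2 fold changes of 0.56 and 0.58, under the minimum fold. The proline synthesis gene PYCR1, read at ENSG00000263585, was called higher with CPA and synta-66 (287 ± 14 CPM) than in untreated cells (169 ± 11.9 CPM, adjusted p = 8.09e-08). Of 8 synthetases, WARS1, read at ENSG00000258666, was called higher in that comparison (559 ± 31.5 CPM with CPA and synta-66, 357 ± 32 CPM untreated, adjusted p = 2.68e-07). It was not called under the scaling by uniquely aligned reads (0.56). No synthetase was called in the others by edgeR or DESeq2, where 1 and 2 were higher at unadjusted p under 0.05. Of 6 genes of the IRE1 and ATF6 arms, 3, 2 and 5 were called higher for CPA against untreated, synta-66 with CPA against CPA, and the combination against untreated, in that order.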

How the data were processed

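Per the labels' protocols, the authors trimmed paired-end reads, aligned them with STAR to GRCh38 (Ensembl 84) and counted reads per gene with HTSeq, taking the library as stranded. The submitters' processing notes give HTSeq 0.6.1p1 and Trimmomatic 0.36. The deposited values are raw counts per gene, with no normalization by the authors. Library sizes and tests exclude the 5 closing rows of unassigned reads. Reads in no annotated feature were 90.5% to 96.3% of uniquely aligned reads.

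The test was that of edgeR 4.0.16 (R 4.3.3), with TMM scaling, the study's filter (5 or more reads in 2 of the 4 libraries of some group), 1 quasi-likelihood fit of all 12 libraries by group, and Benjamini-Hochberg adjustment over 14911 rows. Calls took adjusted p below 0.05 and 1.5-fold or more. CPM uses TMM-scaled sizes, and lengths are exon bases of GENCODE 44. A coding gene was read at an opposite row where that row covered 30 or more of its exon bases from the other strand and those of no other coding gene, taking the row with the most reads. Pairs were compared with exact permutation tests (SciPy 1.17.1). The fit was checked on simulated data.

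The members, lists and tests were chosen with earlier results of these data known. Beyond the members, SLC7A11, ARHGAP9 and ATF4 are named whatever their values, with up to 4 called genes per list, comparison and reading (mean at least 1 CPM, the largest changes; for length not all are printed) and the 3 rows most like each opposite row. The alternatives were DESeq2 1.42.0, other scalings, filters and fold rules, fits of 2 groups, a block of replicate numbers, and libraries left out.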

Additional observations from a re-analysis of the deposited data

Results flagged for a closer look

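In 30 sets of 4 libraries, 3 values were marked because the gap to the nearest other value, over the range of the set, was past Dixon's critical value. Chance marks about 1 in 20 such sets. MARS1 in untreated replicate 2 stood at 226 CPM, above 208, 209 and 210 CPM in the other untreated libraries. SLC7A11-AS1 in untreated replicate 3 stood at 293 CPM, above 212, 223 and 225 CPM. That library is 1 of the 3 richest in non-unique alignments, with 40.1% of gene reads at mitochondrial rows, and without these 3 libraries the fall of SLC7A11-AS1 with CPA was -0.81 against -0.93 with all. ARHGAP9 in untreated replicate 3 was lowest, at 0.313 CPM against 0.586, 0.6 and 0.625 CPM, a level of few reads in every library.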

How the results depend on the processing

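The log2 fold changes of the 6 tested members were recomputed under 24 alternatives in 3 comparisons. Of 432 values, 425 kept their side of the threshold, 6 lost a call and 1 gained one. No called change turned round, but 4 values of uncalled changes for CPA against untreated had the other sign: DDIT3 was 0.01 without CPA replicate 1, 0.019 without untreated replicate 3 and 0.025 without the 3 libraries that stood apart, in place of -0.049, and CEBPB was 0.017 without untreated replicate 4, in place of -0.16. A test against the 1.5-fold minimum itself ended the calls of CEBPB-AS1 for CPA with synta-66 against CPA (0.82, adjusted p = 0.463), and of SLC7A11-AS1 (0.62, adjusted p = 1) and CEBPB (1.28, adjusted p = 0.124) for CPA with synta-66 against untreated. Scaling by uniquely aligned reads, chosen after seeing the data, left SLC7A11-AS1 at 0.53 there. Leaving out 1 library gave 0.55 to 0.73 for that change and 0.32 to 0.70 for CEBPB-AS1 in CPA against untreated. The median of all rows for CPA with synta-66 against untreated was -0.15 under that scaling, with 194 rows called higher and 262 lower against 248 and 185 with TMM, and 235 and 509 against 289 and 421 for synta-66 with CPA against CPA.

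Rows called numbered 425 for CPA against untreated, 710 for synta-66 with CPA against CPA, and 433 between CPA with synta-66 and untreated cells. They numbered 100, 157 and 102 in the test against the minimum fold, 655 for CPA against untreated with no minimum fold, and 357 to 441, 568 to 784 and 335 to 427 with 1 library left out. Without the 3 libraries that stood apart they numbered 401, 581 and 317. Same-numbered libraries of different groups had correlations of -0.0237 to 0.054 in their deviations, and differently numbered ones of -0.0712 to 0.0786. These values show no pairing by number but cannot exclude it. With the replicate number as a block 441, 723 and 418 rows were called, and no call of a member changed. With 5 in place of 0.5 added to the reads, the log2 ratio of EIF2AK3 to ENSG00000225420 turned to -0.86 for CPA against untreated, where 5 exceeds most of the EIF2AK3 counts. In that setting 8 other ratios newly passed, each at adjusted p = 0.0381: EIF2AK3 to ENSG00000225420 (-1.21, CPA with synta-66 against untreated), DDIT3 to MARS1 (-1.77, -1.54 and -3.31), CEBPB to CEBPB-AS1 (-0.64 for CPA against untreated, 0.56 for synta-66 with CPA against CPA) and SLC7A11 to SLC7A11-AS1 (1.11 and -1.34, same comparisons). The ratios of DDIT3 and SLC7A11 listed here already had the smallest possible permutation p with 0.5 added. Their adjusted p fell only because ratios of other pairs also reached that p. Without the 3 libraries that stood apart, the ratio of CEBPB to CEBPB-AS1 for CPA with synta-66 against untreated was -0.32 in place of -0.025. Of 1050 list counts, 952 stayed within 1.5 times. The cause of the other changes was not tested. Low reads limit the own rows of EIF2AK3, SLC7A11 and ATF4.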
